A study of Homo sapiens with 9 samples.

Results

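Accessible chromatin on human chromosome 11 was examined in 4 ATAC-seq peak lists of the HEK293T line, established from human embryonic kidney. ATAC-seq marks open DNA by the insertion of sequencing adapters by the Tn5 transposase. Every peak placed on chromosome 11 was included. These were 1870 of 39194 peaks in the control list, 2385 of 50917 in the IGF2BP1 knockout list, 2042 of 60262 in the IGF2BP2 knockout list and 2137 of 44041 in the IGF2BP3 knockout list. Overlapping peaks of the 4 lists were merged, which gave 2892 regions on chromosome 11 of 71597 in the genome. The wild-type control was made in parallel with a guide RNA matching no mammalian gene. Its list, like those of the IGF2BP2 and IGF2BP3 knockouts, stands for 2 libraries (batches 2 and 3), and that of the IGF2BP1 knockout for 3 (batches 1 to 3). No group received a treatment beyond the editing. Each knockout was a single clone, sorted after transient transfection of a plasmid carrying 3 guides, so effects of the clone and of the genotype cannot be told apart. Whether the control cells were a clone or a pool is not given in the sources used here. Each group is represented by 1 list of peak positions without heights, so no spread between libraries could be measured, read depth was unknown and no batch could be compared within itself.

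Chromosome 11 was chosen by measured values of these lists, namely the smaller share of its peaks that the IGF2BP2 knockout list placed there. The comparisons of that list with the others below are therefore descriptions without a test. IGF2BP1, IGF2BP2 and IGF2BP3 are a family of RNA-binding proteins that attach to messenger RNAs in the cytoplasm and act on their stability, localisation and translation. They are not known as DNA-binding factors of chromatin. An accessible site is usually a promoter, an enhancer or another regulatory element from which nucleosomes have been displaced. Promoters rich in CpG are open in most cell types, whereas enhancers differ more between cell types. Chromosome 11 carries gene-dense stretches near the short-arm end and in the proximal long arm, and also the beta-globin genes, an imprinted cluster and large arrays of olfactory receptor genes.

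Promoter sequences from RefSeq (GRCh38.p14) are shown for genes at sites that the IGF2BP2 knockout list lacked and the other 3 lists held. Gene starts at which the lists differed in other ways are not printed. Of 1301 protein-coding genes of the chromosome, 953 had an entry in the promoter table. Each sequence runs 5′ to 3′ on the gene's strand from 250 bases before the start site, and capitals mark the motifs searched on both strands. The TATA box was searched with the letters TATAAA, and the CCAAT box with the letters of its name. GC boxes were searched with the letters GGGCGG, and sites of ETS factors with the letters CCGGAAG. The CRE, a cyclic AMP response element, was searched with the letters TGACGTCA, and the E box with the letters CACGTG. For the AP-1 motif, the letters searched were TGANTCA. None of these motifs contains another, but matches can overlap. The first 4 belong to lacking sites, at PACS1 (chr11:66070022-66070321, plus strand), CNIH2 (chr11:66277925-66278224, plus strand), CTSF (chr11:66568557-66568856, minus strand) and GRM5 (chr11:89065933-89066232, minus strand). For contrast, the last 2 lie in regions that rank among the widest of those held by all 4 lists, at ABTB2 (chr11:34357961-34358260, minus strand) and FADS1 (chr11:61816954-61817253, minus strand).
PACS1: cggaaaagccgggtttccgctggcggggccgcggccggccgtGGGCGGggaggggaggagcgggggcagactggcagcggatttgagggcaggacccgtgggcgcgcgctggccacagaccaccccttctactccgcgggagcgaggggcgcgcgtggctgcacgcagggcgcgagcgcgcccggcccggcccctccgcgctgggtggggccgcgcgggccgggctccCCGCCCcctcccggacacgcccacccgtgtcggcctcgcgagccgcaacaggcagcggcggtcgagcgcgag
CNIH2: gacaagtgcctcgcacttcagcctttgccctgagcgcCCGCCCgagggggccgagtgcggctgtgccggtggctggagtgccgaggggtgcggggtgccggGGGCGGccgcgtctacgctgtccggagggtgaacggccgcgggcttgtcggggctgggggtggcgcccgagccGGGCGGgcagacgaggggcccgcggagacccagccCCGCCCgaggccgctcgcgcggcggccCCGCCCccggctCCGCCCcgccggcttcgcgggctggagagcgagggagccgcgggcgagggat
CTSF: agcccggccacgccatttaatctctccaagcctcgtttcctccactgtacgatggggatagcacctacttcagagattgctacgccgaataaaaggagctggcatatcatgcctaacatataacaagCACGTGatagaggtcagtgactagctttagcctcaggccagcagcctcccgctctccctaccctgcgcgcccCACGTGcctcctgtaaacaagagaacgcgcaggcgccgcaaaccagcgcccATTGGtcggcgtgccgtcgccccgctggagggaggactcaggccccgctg
GRM5: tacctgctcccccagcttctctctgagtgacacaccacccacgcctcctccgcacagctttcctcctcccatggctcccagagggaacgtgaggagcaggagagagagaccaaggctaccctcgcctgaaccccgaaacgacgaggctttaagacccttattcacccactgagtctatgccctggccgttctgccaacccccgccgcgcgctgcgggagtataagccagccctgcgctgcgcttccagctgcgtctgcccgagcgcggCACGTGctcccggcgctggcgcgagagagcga
ABTB2: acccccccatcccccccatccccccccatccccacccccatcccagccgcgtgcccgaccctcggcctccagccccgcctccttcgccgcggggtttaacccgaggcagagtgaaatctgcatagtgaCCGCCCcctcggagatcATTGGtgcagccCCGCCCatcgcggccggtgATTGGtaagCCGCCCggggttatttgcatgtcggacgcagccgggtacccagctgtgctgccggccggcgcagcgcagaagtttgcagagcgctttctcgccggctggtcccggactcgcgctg
FADS1: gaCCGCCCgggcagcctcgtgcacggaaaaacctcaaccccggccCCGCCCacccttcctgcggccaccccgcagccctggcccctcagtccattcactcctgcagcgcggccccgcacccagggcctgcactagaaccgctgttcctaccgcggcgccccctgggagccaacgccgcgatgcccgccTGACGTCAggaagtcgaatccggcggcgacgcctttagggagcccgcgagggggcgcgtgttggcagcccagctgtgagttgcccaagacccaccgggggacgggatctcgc

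The PACS1 and CNIH2 promoters are 80% G or C and hold 47 and 44 CpG dinucleotides, with GC boxes as their only searched motif. The CTSF promoter is 59.3% G or C with 22 CpG, 2 E boxes and a CCAAT box in reverse orientation, and the GRM5 promoter is 65% G or C with 25 CpG and an E box. The 12 promoters of the table that overlapped a lacking site ranged from 41.7 to 83% G or C with a median of 62.2%, against a median of 65.7% for the 838 promoters that overlapped a region held by all 4 lists. Both stood above the median of all 1893 promoter entries of the chromosome, 57.7%. Their median number of CpG was 23.5 at lacking sites, 26 at regions in all 4 lists and 10 over the chromosome. GC boxes were present in 5 of the 12 promoters (41.7%) and in 72.7% of those at regions in all 4 lists. The share was 42% of all chromosome 11 promoters and 44.95% of the 35116 in the table. The ETS motif was found in none of the 12 and in 20.6% of promoters at regions in all 4 lists, 10.6% of the chromosome's promoters and 10.3% of the table. E boxes were found in 3 of the 12, and in 9.07, 6.34 and 7.26% of those same 3 sets. TATA boxes were found in none of the 12 and in 3.34, 12.6 and 11.5% of the sets. CCAAT boxes were in 3 of the 12 (25%), and in 37.5, 36.98 and 34.6% of the sets. The AP-1 motif was in 2 of the 12 (16.7%), and in 3.7, 8.51 and 7.71% of the sets. The CRE was in none of the 12 and in 3.22, 1.955 and 1.85% of the sets. With 12 promoters, among which TRIM6 and TRIM6-TRIM34 share 1 window, these shares rest on few sequences.

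The IGF2BP2 knockout list held slightly more chromosome 11 peaks than the control, 2042 against 1870 or 1.09 times as many. On the other chromosomes the same list had 57885 peaks against 37081 in the control, 1.56 times as many. For the IGF2BP1 knockout, the corresponding ratios were 1.28 on chromosome 11 and 1.3 elsewhere, and for the IGF2BP3 knockout 1.14 and 1.12. As a share of peaks on chromosomes 1 to 22 and X, chromosome 11 held 4.8% in the control (95% Wilson interval 4.59 to 5.02) and 3.41% in the IGF2BP2 knockout (3.27 to 3.56). The IGF2BP1 knockout share was 4.71% (4.52 to 4.89) and the IGF2BP3 knockout share 4.88% (4.69 to 5.09). Only counting error over peaks enters such intervals, and neighbouring peaks are not independent. The IGF2BP2 knockout share was 0.71 of the control share. On the other 22 chromosomes the same ratio ran from 0.789 on chromosome 19 to 1.6 on chromosome 13, with a median of 0.9997. For the IGF2BP1 knockout, the ratio on those 22 chromosomes ran from 0.742 on chromosome 17 to 1.39 on chromosome 13. The IGF2BP3 knockout ratio ran from 0.7785 on chromosome 2 to 1.67 on chromosome 13. Low ratios of near size thus occurred on other chromosomes in the other knockout lists.

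Both arms showed the same picture. The short arm, taken as the sequence below 50 Mb, held 682 control peaks, 857 in the IGF2BP1 knockout, 741 in the IGF2BP2 knockout and 761 in the IGF2BP3 knockout. The long arm, from 55 Mb, held 1183, 1527, 1300 and 1374 in the same order. The IGF2BP2 knockout share was 0.706 of the control share on the short arm and 0.714 on the long arm. These ratios were 0.966 and 0.992 for the IGF2BP1 knockout, and 0.993 and 1.03 for the IGF2BP3 knockout. The window between the arms contains the centromere and held 5, 1, 1 and 2 peaks.

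Peaks were narrower in the IGF2BP2 knockout list on this chromosome, as they were elsewhere. The median width on chromosome 11 was 786 (control), 839 (IGF2BP1 knockout), 672 (IGF2BP2 knockout) and 725 bp (IGF2BP3 knockout). On the short arm the medians were 768.5, 847, 679 and 734 bp, and on the long arm 794, 836, 669 and 721.5 bp. On all other chromosomes the medians were 771, 834, 651 and 713 bp, so the order of the lists was the same. Total accessible sequence on chromosome 11 was 1606 (control), 2207 (IGF2BP1 knockout), 1546 (IGF2BP2 knockout) and 1739 kb (IGF2BP3 knockout). The IGF2BP2 knockout thus covered 0.963 times the control length here, while it covered 1.35 times the control length on the other chromosomes.

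**Figure D1:**
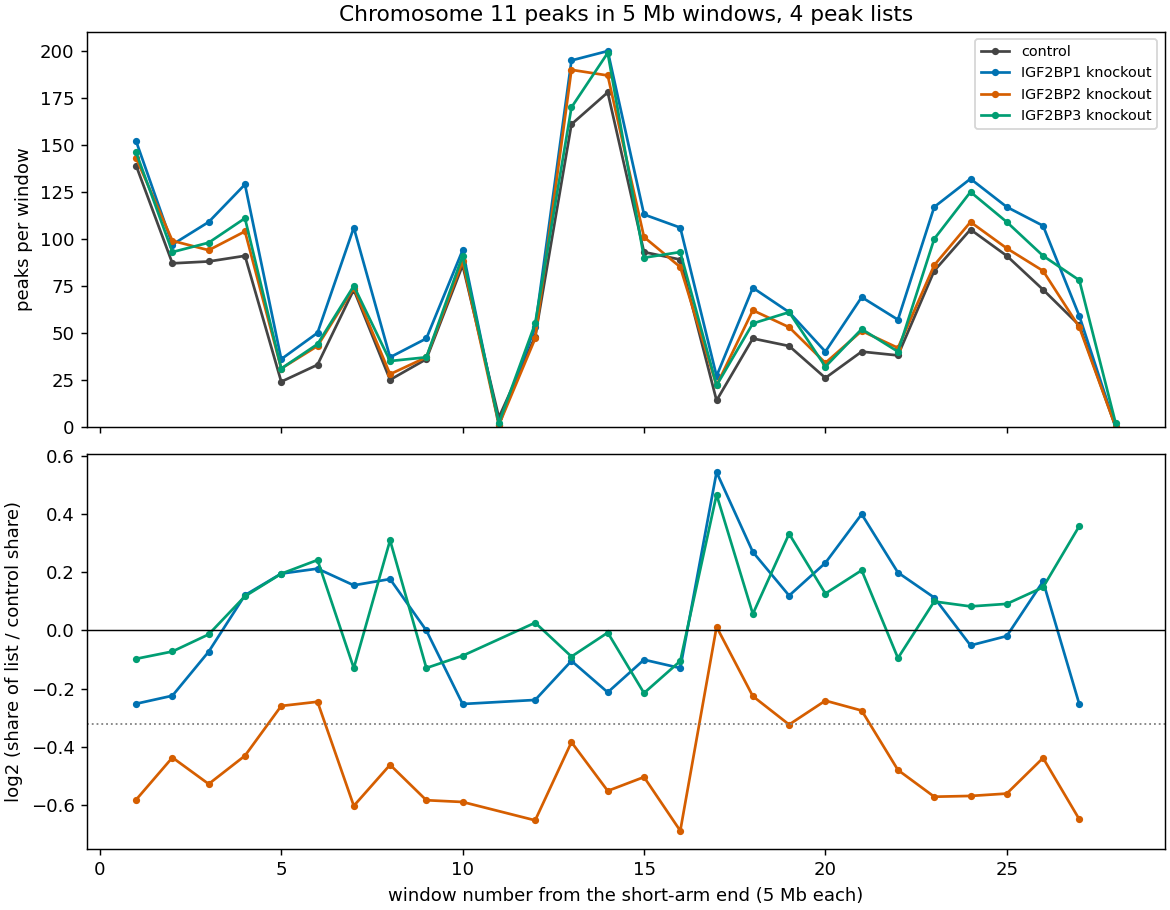
Upper panel, number of peaks in each 5 Mb window of chromosome 11 (windows numbered from the short-arm end) in the 4 lists; lower panel, log2 of the ratio of shares, each knockout list over the control, in the 26 windows averaging 20 or more peaks, with a solid line at 0 and a dotted line at a ratio of 0.8. The IGF2BP2 knockout line lies below the other knockout lines at every window, between -0.69 and 0.01.

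The difference ran along the whole chromosome in 5 Mb windows. Windows averaging 20 or more peaks over the lists numbered 26. The IGF2BP2 knockout share was below the control share in 25 of them, and below 0.8 of it in 20. Over all chromosomes, 51.1% of 575 windows were below the control share and 12.5% were below 0.8 of it, and these backgrounds belong to the contrast by which the chromosome was chosen. In the IGF2BP1 and IGF2BP3 knockouts, 12 and 11 of the 26 windows were below the control share and none was below 0.8 of it. Of 549 windows on other chromosomes, 46.1 and 51.7% were below the control share in these knockouts. Those below 0.8 of it made up 6.74 and 13.1%. The log2 ratio of shares in the IGF2BP2 knockout had a median of -0.49 and ranged from -0.69 to 0.01. Its range was -0.25 to 0.54 for the IGF2BP1 knockout and -0.21 to 0.47 for the IGF2BP3 knockout. In each of the 26 windows the IGF2BP2 knockout ratio was lower than that of both other knockouts. This comparison was not made on other chromosomes.

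The lowest ratio was in the window from 75 to 80 Mb, where the 4 lists held 89 (control), 106 (IGF2BP1 knockout), 85 (IGF2BP2 knockout) and 93 (IGF2BP3 knockout) peaks. The next lowest were the windows from 55 to 60 Mb, with 48, 53, 47 and 55 peaks, and from 130 to 135 Mb, with 54, 59, 53 and 78 peaks. The IGF2BP2 knockout count was the lowest of the 4 lists in each of these 3 windows, which are the windows where it was below the control count. The highest ratio was in the window from 80 to 85 Mb, with 14, 27, 22 and 22 peaks, a log2 ratio of 0.01. It was followed by the windows from 85 to 90 Mb (47, 74, 62 and 55 peaks) and from 95 to 100 Mb (26, 40, 34 and 32 peaks). These 3 windows held 55, 85 and 46 annotated genes. Of the 3 lowest, the window from 75 to 80 Mb held 105 and that from 130 to 135 Mb held 73. The window from 55 to 60 Mb, which spans olfactory receptor arrays, held 264. Gene counts of the lowest and highest windows thus overlapped. The densest windows in peaks were those from 65 to 70 Mb, with 178, 200, 187 and 199 peaks, and from 60 to 65 Mb, with 161, 195, 190 and 170 peaks. There the log2 ratios in the IGF2BP2 knockout were -0.55 and -0.38. Counted without regard to list length, the IGF2BP2 knockout had fewer peaks than the IGF2BP1 knockout in 25 of 26 windows and fewer than the IGF2BP3 knockout in 17. Such counts were not made on other chromosomes.

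Window medians of peak width followed the whole-list order. The IGF2BP2 knockout had the smallest median of the 4 lists in 22 of 26 windows, with a range of 510 bp (80 to 85 Mb) to 860 bp (55 to 60 Mb). The medians ranged over 646.5 to 877.5 bp for the control, 729 to 961 bp for the IGF2BP1 knockout and 532 to 860.5 bp for the IGF2BP3 knockout. The IGF2BP1 knockout had the largest median in 22 windows. Windows of other chromosomes were not compared in this way.

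**Figure D2:**
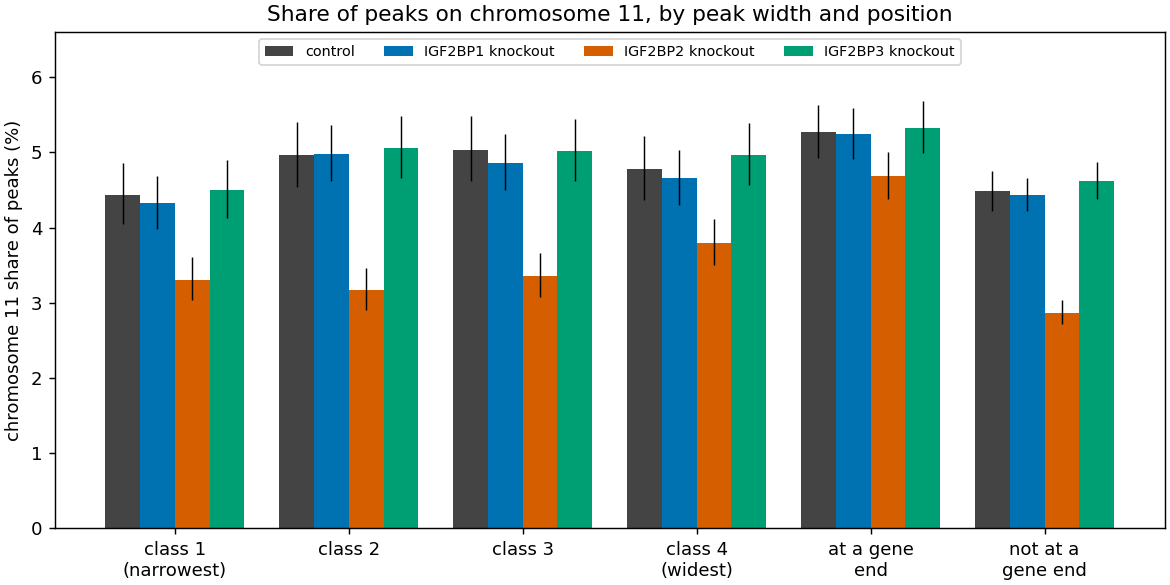
Chromosome 11 share (percent, bars from 0, with 95% Wilson intervals) of the peaks of each list in 4 equal classes of width and at or away from gene ends. The IGF2BP2 knockout bar is the lowest in each class, from 3.17 to 3.8% in the width classes and 2.87% away from gene ends.

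The smaller share was present at all peak widths and was more marked more than 1 kb from a gene end, a class that includes peaks inside genes. When each list was divided into 4 equal classes by width, the chromosome 11 share in the IGF2BP2 knockout was 3.3, 3.17, 3.36 and 3.8% from the narrowest to the widest class. The control shares were 4.44, 4.96, 5.03 and 4.78%. Peaks at a gene end, meaning within 1 kb of either end of an annotated gene, numbered 830 in the control, 894 in the IGF2BP1 knockout, 834 in the IGF2BP2 knockout and 865 in the IGF2BP3 knockout. Of all gene-end peaks, 4.69% (4.38 to 5.01) lay on chromosome 11 for the IGF2BP2 knockout and 5.27% (4.93 to 5.63) for the control, a ratio of 0.889. Away from gene ends, the counts were 1040, 1491, 1208 and 1272, and the shares were 2.87% (2.71 to 3.03) for the IGF2BP2 knockout and 4.48% (4.22 to 4.76) for the control, a ratio of 0.64. For the IGF2BP1 and IGF2BP3 knockouts, this ratio was 0.989 and 1.03.

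Merged regions were then sorted by which lists held them. Of the 2892 regions on chromosome 11, 1434 were in all 4 lists. There were 294 in the IGF2BP1 knockout list alone, 215 in the IGF2BP3 knockout alone, 97 in the IGF2BP2 knockout alone and 74 in the control alone. Across the genome the order differed, with 4314, 3506, 10897 and 1416 regions in these single-list classes. Chromosome 11 thus held 0.89% (Wilson 95% interval 0.73 to 1.09) of the regions found in the IGF2BP2 knockout alone, and 6.82, 6.13 and 5.23% of those found in the IGF2BP1 knockout, the IGF2BP3 knockout or the control alone. In the 8 classes that include the IGF2BP2 knockout list, the chromosome 11 share ran from 0.89 to 4.83%. In the 7 classes that exclude it, the share ran from 5.23 to 13.2%. This split uses the list by which the chromosome was chosen, so the gap between the ranges is a description and not a separate result. The chromosome held 4.04% of all regions.

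**Figure D3:**
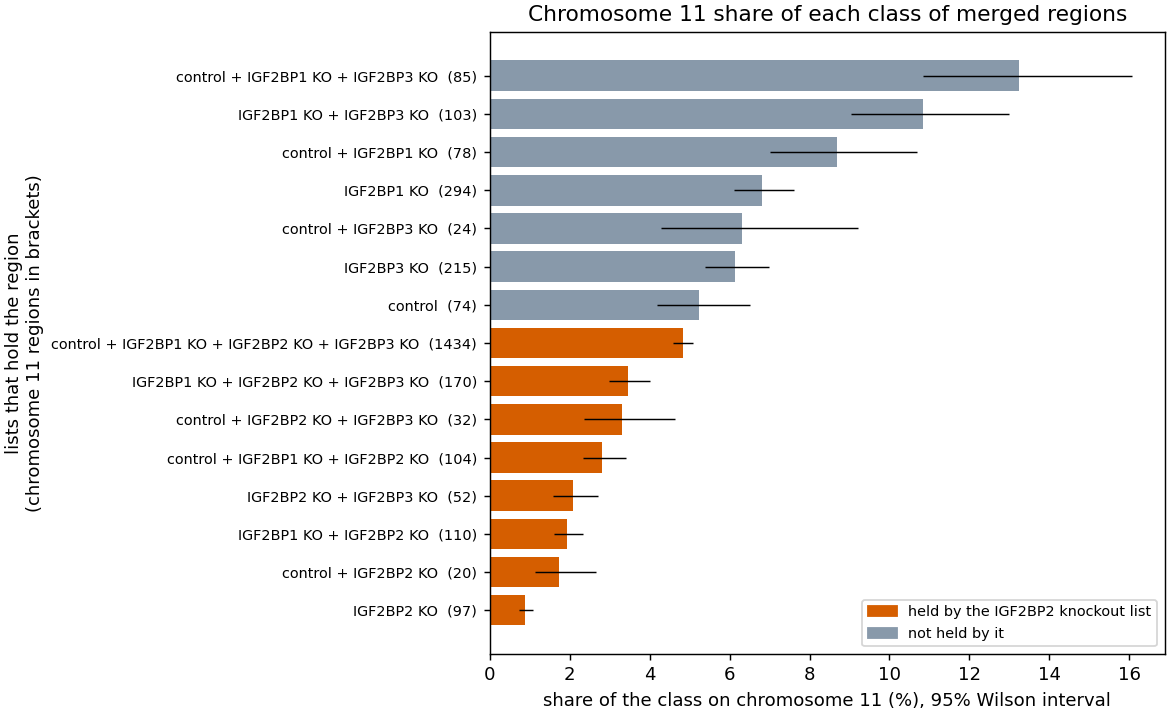
Share (percent, with 95% Wilson intervals) of the regions of each class that lie on chromosome 11, where a class is the set of lists holding the region and the number in brackets is its count on chromosome 11. The 8 classes held by the IGF2BP2 knockout list (orange) reach 4.83% and the 7 classes without it (grey) start at 5.23%. This split uses the list by which the chromosome was chosen.

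Regions present in the control, IGF2BP1 knockout and IGF2BP3 knockout lists and absent from the IGF2BP2 knockout list numbered 85 of 1519 on chromosome 11 (5.6%, Wilson 95% interval 4.55 to 6.87). Over the whole genome, 2.12% of such regions were absent from that list, a background from the same contrast. The percentage on the other 22 chromosomes ran from 0.945% on chromosome 19 to 3.58% on chromosome 7. The short arm had 31 of 544 (5.7%) and the long arm 54 of 975 (5.54%). For the other lists, chromosome 11 lay below the genome instead. Their percentages count only regions that the IGF2BP2 knockout list held, so they are not independent of the contrast that chose the chromosome. Regions absent from the IGF2BP3 knockout alone were 104 of 1538 (6.76%), with a background of 11.1%. Regions absent from the IGF2BP1 knockout alone were 32 of 1466 (2.18%), with a background of 3.15%, and those absent from the control alone were 170 of 1604 (10.6%), with a background of 14.2%.

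The 85 lacking sites were spread along the chromosome. They fell in 22 of the 26 windows, and 13 of them lay between 65 and 70 Mb, the window with the most peaks. The windows from 25 to 30, 35 to 40, 40 to 45 and 80 to 85 Mb had none. Ordered along the chromosome among the 1519 sites of the other 3 lists, 73 lacking sites stood alone and 6 pairs were neighbours, and no longer run occurred. The longest stretch without one was 11.4 Mb on the short arm. The nearest IGF2BP2 knockout peak was a median of 14.7 kb away, with a range of 0.426 to 249 kb, and it was at least 1 kb away at 77 sites. On either side of that distance were the site at the PACS1 start (0.977 kb) and one inside CPT1A (1.115 kb).

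Lacking sites were narrower than the sites held by all 4 lists. Their median width was 588 (control), 727 (IGF2BP1 knockout) and 589 bp (IGF2BP3 knockout), against 886, 995.5 and 867.5 bp for regions in all 4 lists. Within each list, their median width percentile was 28.8 (control), 37.9 (IGF2BP1 knockout) and 35.4 (IGF2BP3 knockout). The percentage absent from the IGF2BP2 knockout list is given by width as a description, since it belongs to the contrast that chose the chromosome, and the part of width in the lower share was not tested. Where the smallest of the 3 widths was at least 300 and below 500 bp, 35 of 209 regions (16.7%, 12.3 to 22.4) were absent on chromosome 11 and 5.22% of 4653 on other chromosomes. From 500 to below 750 bp it was 34 of 501 (6.79%, 4.9 to 9.33) and 2.1% of 8715. From 750 to below 1000 bp it was 6 of 348 (1.72%, 0.793 to 3.71) and 0.9995% of 6303. At 1000 bp or more it was 8 of 451 (1.77%, 0.902 to 3.46) and 0.345% of 8703. Only 10 regions were narrower than 300 bp, of which 2 were absent.

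**Figure D4:**
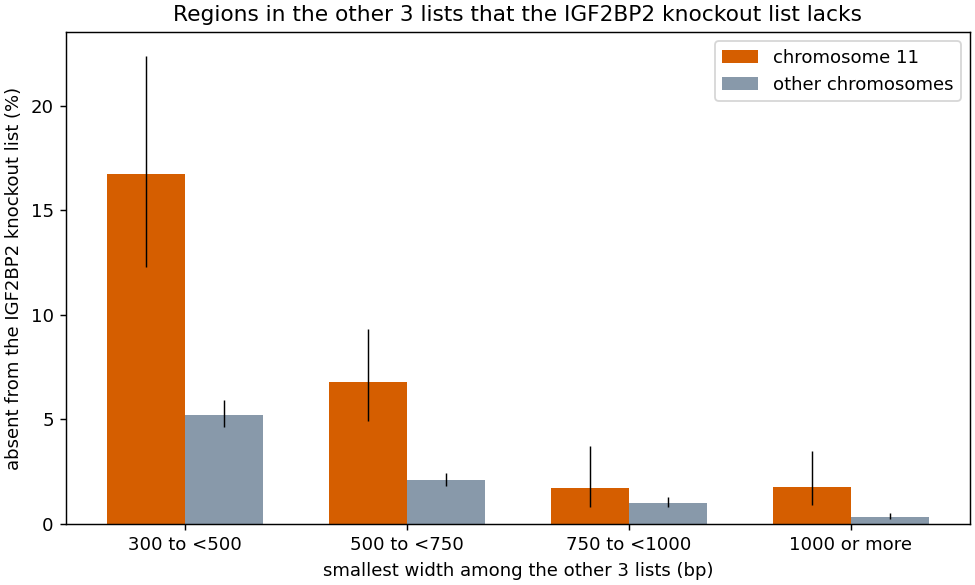
Percentage of regions in the control, IGF2BP1 knockout and IGF2BP3 knockout lists that the IGF2BP2 knockout list lacks (95% Wilson intervals), by the smallest of the 3 widths, on chromosome 11 and on all other chromosomes. The bars fall with width on the other chromosomes from 5.22 to 0.345%, and the chromosome 11 bar is the higher one in each class.

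Relative to genes, 28 of the 85 lacking sites were at a gene end, 39 lay inside a gene away from its ends and 18 lay between genes. The corresponding percentages were 32.9, 45.9 and 21.2%, against 52.2, 31.8 and 16% for the 1434 regions in all 4 lists. Regions in the IGF2BP2 knockout alone were at a gene end in 8 of 97 cases (8.25%). Their median width was 407 bp. Values for such regions on other chromosomes are not given here, so neither trait is shown to be particular to chromosome 11. Whether a site is exonic, intronic or in an untranslated region was not determined, since the gene table gives neither exons nor transcripts. Absence from the IGF2BP2 knockout list was more common away from gene ends, at 57 of 743 regions (7.67%) against 28 of 776 at gene ends (3.61%). On other chromosomes these were 2.55 and 1.24%.

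**Figure D5:**
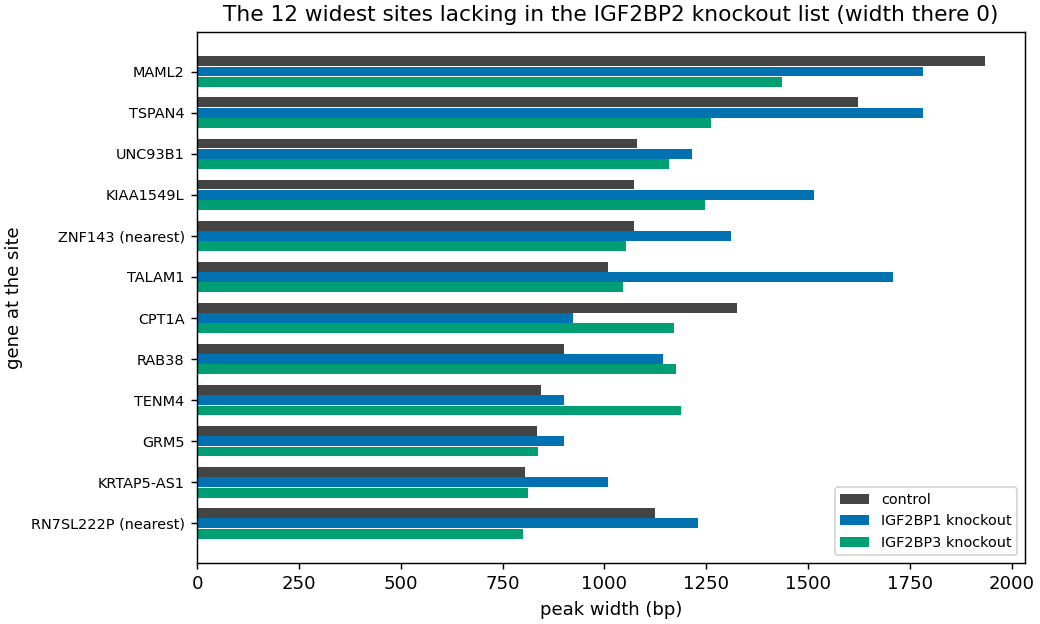
Width in bp of the peaks of the control, IGF2BP1 knockout and IGF2BP3 knockout lists at the 12 chromosome 11 sites with the largest smallest width among those at least 1 kb from any IGF2BP2 knockout peak, labelled by the gene they overlap or the nearest gene. The first site, inside MAML2, has widths of 1935, 1782 and 1437 bp.

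Among sites at least 1 kb from any IGF2BP2 knockout peak, ranked by the smallest of their 3 widths, the first lay inside MAML2 at chr11:96277699-96279827. MAML2 encodes a coactivator of Notch signalling. Its peak was 1935 (control), 1782 (IGF2BP1 knockout) and 1437 bp (IGF2BP3 knockout) wide. The second lay at a start site inside TSPAN4, a tetraspanin membrane protein, at chr11:849269-851050, with widths of 1622, 1782 and 1261 bp in the same order. The third was at an end of UNC93B1, which carries nucleic acid-sensing Toll-like receptors to endosomes, at chr11:68003021-68004261 (1079, 1215 and 1159 bp). At each of these sites the smallest of the 3 peaks was wider than 1000 bp, and the nearest IGF2BP2 knockout peak was 27, 6.17 and 5.67 kb away.

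The next sites were at an end of KIAA1549L (chr11:33375731-33377245) with 1072, 1515 and 1248 bp. One followed 0.183 kb outside ZNF143, a zinc finger activator bound at many promoters (chr11:9528707-9530048), with 1073, 1311 and 1054 bp. Another overlapped TALAM1, the antisense transcript of the abundant nuclear RNA MALAT1 (chr11:65506876-65508753), with 1008, 1709 and 1045 bp. The site inside CPT1A, the enzyme that admits long-chain fatty acids to mitochondrial oxidation, had 1326, 923 and 1170 bp (chr11:68840822-68842147). Of these 4 sites, the first 3 exceeded 1000 bp in each list that held them, and the CPT1A site did so in all but the IGF2BP1 knockout.

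The rest of the 12 were narrower. They lay at an end of RAB38, a small GTPase of melanosome biogenesis (chr11:88174721-88175912, 900, 1144 and 1175 bp), and inside TENM4, a teneurin of neuronal cell contacts (chr11:79087240-79088427, 844, 901 and 1188 bp). The start of GRM5, a metabotropic glutamate receptor, had 834, 901 and 836 bp (chr11:89065303-89066203). The last ones overlapped KRTAP5-AS1 near the hair keratin-associated gene KRTAP5-2 (chr11:1595369-1596390, 805, 1008 and 812 bp) and lay between genes, 90.1 kb from the pseudogene RN7SL222P and 135 kb from the coding gene ARHGAP42 (chr11:100550633-100551918, 1123, 1231 and 801 bp). The genes AP2A2, DCDC1, FLI1, OSBPL5 and PACS1 overlapped 2 lacking sites each, and no other gene overlapped more than 1.

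Of the 1301 protein-coding genes of chromosome 11, the control list marked 752 with a gene-end peak (57.8%). The IGF2BP1, IGF2BP2 and IGF2BP3 knockout lists marked 779 (59.9%), 745 (57.3%) and 770 (59.2%). Elsewhere in the genome the percentages were 66.9, 69.2, 68.97 and 67.55%. Of 733 chromosome 11 genes with a gene-end peak in the other 3 lists, 20 (2.73%) had none in the IGF2BP2 knockout. Over all chromosomes 1.09% of such genes had none, again within the contrast that chose the chromosome. In the opposite direction, the IGF2BP2 knockout list alone marked 4 of the 1301 coding genes, beside 193 of 18673 on other chromosomes. Genes lacking one in a single other list numbered 1 (IGF2BP1 knockout), 5 (IGF2BP3 knockout) and 14 (control) of the 1301, beside 49, 183 and 222 of the 18673. These counts are over all coding genes, unlike the 2.73%, which is over genes with a peak in the other 3 lists. Of the 20 genes, 18 were at 16 of the lacking sites.

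These genes were ranked by the smallest of 3 widths, taking the widest peak at either gene end in each list. The first was the peak at the start of PACS1, a sorting adaptor of the trans-Golgi network. It spanned chr11:66069482-66070857 in the control (1376 bp), chr11:66069492-66071049 in the IGF2BP1 knockout (1558 bp) and chr11:66069771-66071101 in the IGF2BP3 knockout (1331 bp). It is the CpG-rich sequence printed above as PACS1. The 3 peaks cover the same start site, and the nearest IGF2BP2 knockout peak lay 0.977 kb from the control peak. After UNC93B1 and KIAA1549L came ANGPTL5, an angiopoietin-like secreted protein, with 1073, 1032 and 1042 bp, and TSPAN18, another tetraspanin, with 1055, 1123 and 1027 bp. At both of these the IGF2BP2 knockout list held an overlapping peak that did not reach within 1 kb of the annotated end, so they are not among the 85 sites. RAB38, GRM5 and KRTAP5-2 followed.

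The rest of the 12 genes were LRP4, CTSF, CNIH2 and PGGHG, ranked by 794, 737, 589 and 567 bp. LRP4, a receptor of agrin at the neuromuscular junction, had a peak of 794 (control), 830 (IGF2BP1 knockout) and 734 bp (IGF2BP3 knockout) across its higher-coordinate end, the control peak lying 0.712 kb from an IGF2BP2 knockout peak. The IGF2BP3 knockout had a second peak of 973 bp there that an IGF2BP2 knockout peak overlapped. The start of CTSF, the lysosomal protease cathepsin F, had 759, 756 and 737 bp, nearly the same width in the 3 lists and 10.02 kb from the nearest IGF2BP2 knockout peak. At the start of CNIH2, an auxiliary subunit of AMPA glutamate receptors, the widths were 522, 661 and 589 bp. Towards its other end the control and IGF2BP1 knockout lists had peaks of 1082 and 1094 bp, which an IGF2BP2 knockout peak overlapped. PGGHG, a glucosidase that acts on collagen, had 1013, 1229 and 567 bp at one end. Of the peaks at these ends, that of the IGF2BP3 knockout was the narrowest at LRP4, CTSF and PGGHG, and that of the control at CNIH2.

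Gene lists of the chromosome were set beside its 1301 coding genes. Of those, 713 had a gene-end peak in all 4 lists and 494 had none in any. Innate immune signalling is the subject that the series title names for these proteins. Of 27 innate immune genes, 18 carried a gene-end peak in each list but that of the IGF2BP2 knockout, which had 15. The 3 that it lacked were UNC93B1, IRF7 and TRIM6. IRF7, a transcription factor of type I interferon genes, had peaks of 626 (control), 815 (IGF2BP1 knockout) and 378 bp (IGF2BP3 knockout), the last among the narrow peaks of its list. The same site also counted for its neighbour CDHR5. TRIM6, a ubiquitin ligase, had 552, 1222 and 540 bp for the widest peak at an end. The other 15 genes with a peak had one in all 4 lists, among them RELA, TRAF6, TRIM21, TIRAP, BIRC2 and BIRC3, and 9 had none in any list, including CASP1, CASP4, CASP5, IL18 and IFITM1. Against 2.73% of all chromosome 11 genes that had peaks in the other 3 lists, 3 of 18 is a larger fraction in a small list, chosen with earlier results known, and it was not tested.

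Among 12 genes of the CCND1 and FGF cluster, 9 had a gene-end peak in all 4 lists and FGF4 and ANO1 in none. CCND1, the gene of cyclin D1 that drives entry into DNA synthesis, had a peak of 419 (control), 454 (IGF2BP1 knockout) and 466 bp (IGF2BP3 knockout) at the lower-coordinate end, from 69640982 to 69641465 across the 3 lists. The IGF2BP2 knockout list had no peak within 1.56 kb of it. Among 18 DNA repair and chromatin genes, 16 had a gene-end peak in all 4 lists, including ATM, MRE11, CHEK1, KMT2A, MEN1 and EED, and FANCF had none in any. KMT5B, a histone methyltransferase, had one in the IGF2BP1 and IGF2BP3 knockouts (910 and 931 bp) and none in the control or the IGF2BP2 knockout. All 6 ribosomal protein genes and all 7 genes of the WT1 and PAX6 region had one in every list.

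Lists of tissue-restricted genes were mostly without peaks. Of 171 olfactory receptor genes, 165 had no gene-end peak in any list, and 3 had one in all 4. Among the 1301 coding genes of the chromosome, 494 had none in any list. The others differed between lists. OR56A3 had a peak in the IGF2BP1 knockout alone (479 bp), OR4S1 in the IGF2BP1 and IGF2BP3 knockouts (536 and 497 bp) and OR10G8 in the IGF2BP3 knockout alone (573 bp). The 5 beta-globin genes had none in any list. Of 9 matrix metalloproteinase genes, 7 had none in any list, MMP3 had one in the IGF2BP1 knockout alone (744 bp), and MMP10 had one in the IGF2BP1 and IGF2BP2 knockouts (379 and 301 bp).

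Of 15 neuronal genes, 9 had a gene-end peak in all 4 lists, including NCAM1, DRD2 and CADM1, beside 713 of the 1301 coding genes. GRIA4, an AMPA receptor subunit, had one in the knockout lists (1643, 460 and 1321 bp for IGF2BP1, IGF2BP2 and IGF2BP3) and none in the control. Of 5 ETS factors, ELF5 and SPI1 had one in all lists and ETS1, FLI1 and EHF in none, though FLI1 overlapped 2 of the lacking sites away from its ends. In the imprinted cluster, 5 of 9 genes had a peak in all 4 lists, and IGF2 and INS had none in any. H19, a maternally expressed long non-coding RNA, had one of 925 (control), 957 (IGF2BP1 knockout) and 954 bp (IGF2BP2 knockout) and none in the IGF2BP3 knockout. NEAT1, the RNA scaffold of paraspeckles, was without one in the control, and the knockout peaks were 657, 524 and 759 bp wide for IGF2BP1, IGF2BP2 and IGF2BP3.

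Sites held by all 4 lists also differed in width. Over 1434 such regions on chromosome 11, the median width was 886 (control), 995.5 (IGF2BP1 knockout), 803.5 (IGF2BP2 knockout) and 867.5 bp (IGF2BP3 knockout). The median log2 ratio to the control width was -0.10 in the IGF2BP2 knockout (middle 50% of regions -0.31 to 0.05), while over 28082 regions on other chromosomes it was -0.001. For the IGF2BP1 knockout the medians were 0.13 on chromosome 11 and 0.12 elsewhere, and for the IGF2BP3 knockout -0.03 in both. The IGF2BP2 knockout peak was the narrowest of the 4 at 680 of the 1434 regions (47.4%), against a background of 29.0% over the genome. The arms had medians of -0.08 (short) and -0.10 (long). These widths belong to the contrast by which the chromosome was chosen.

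Ranked by the smallest of the 4 widths, the first region was at the start of ABTB2, whose promoter is printed above (chr11:34356800-34359481), with 2528 (control), 2625 (IGF2BP1 knockout), 2640 (IGF2BP2 knockout) and 2632 bp (IGF2BP3 knockout). It was followed by the end of ZBTB16, a zinc finger repressor (chr11:114059270-114061889; 2336, 2620, 2262 and 2315 bp), and the shared region of FADS1 and FADS2, desaturases of polyunsaturated fatty acids (chr11:61815011-61817392; 2307, 2347, 2233 and 2262 bp). At ABTB2 the IGF2BP2 knockout peak was the widest of the 4, and at the other two it was the narrowest. The widest regions in the IGF2BP2 knockout alone were inside CDCA5, the cohesion factor sororin (chr11:65077802-65078912, 1111 bp), inside IRAG1 (chr11:10659232-10660130, 899 bp) and inside XNDC1N (chr11:71886784-71887620, 837 bp).

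As a check of the cell label, gene-end peaks were counted at markers across the genome. Of 8 kidney development genes, WT1, SALL1, LHX1 and SIX2 had one in all 4 lists and PAX2 and PAX8 in none. EYA1 and OSR1 had one in the IGF2BP3 knockout list alone. Of 5 neuronal markers, 4 had one in all lists, and TUBB3 had one in each list but that of the IGF2BP2 knockout. Of 6 blood markers, SPI1 alone had one in all lists, CD3E had one in the IGF2BP1 knockout list alone and 4 had none in any. Of 3 liver markers APOA1 alone had one. Peak presence at a gene end does not measure expression, so these counts do not test the identity of the cells.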

How the data were processed

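ATAC-seq was made from 9 libraries in 4 groups. Per the submitters' processing notes, the tools named are fastp 0.24.1, BWA 0.7.17, MACS2 3.0.0 and bedtools with GRCh38. Their settings, the peak threshold, the Tn5 offset and the way libraries were combined are not given in the sources used here. The authors deposited 1 list of peak starts and ends per group, without heights.

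Peaks were analysed with Python 3.11.15, numpy 2.4.6, pandas 2.3.3 and scipy 1.17.1, with figures from matplotlib 3.10.9. Shares use peaks on chromosomes 1 to 22 and X, placed by midpoint. Regions merge peaks with at least 1 bp in common. Window ratios carry a pseudocount of 0.5. Gene positions are from RefSeq (GRCh38.p14), and printed coordinates count from 1. Gene ends (within 1 kb of either end) were used because strand was known for 953 of 1301 coding genes of the chromosome. Region sorting was tested on simulated data. Sites were named by rank of the smallest width among the 3 lists holding them (up to 12 sites and 12 genes). For genes, the width of a list was that of its widest peak at either gene end. Also named were list genes that differed between lists, the widest regions in all 4 lists or in the IGF2BP2 knockout alone, and the windows of lowest and highest ratio. Other genes were named as examples after their values were seen. The chromosome, lists and rules were chosen with earlier results of these data known. No test was run.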

Additional observations from a re-analysis of the deposited data

How the results depend on the processing

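No paired analysis was possible because each group has 1 peak list, so neither a replicate block nor leaving out a library could be run. The chromosome 11 share in the IGF2BP2 knockout was 0.71 of the control share, and it was 0.722 with the 39194 widest peaks of each list, 0.702 with peaks of at least 500 bp, 0.714 with peaks closer than 500 bp merged and 0.722 (0.7215) without chromosome 13, a choice made after seeing the data. With gene-end peaks alone it moved to 0.889 (short arm 0.885, long arm 0.891), and with the other peaks alone to 0.64 (0.631 and 0.65). The 95% interval of the gene-end ratio was 0.809 to 0.976 for the chromosome. It was 0.749 to 1.04 on the short arm and 0.794 to 1 on the long arm, so the lower gene-end share was less certain by arm. The percentage of sites absent from the IGF2BP2 knockout alone, 5.6%, moved to 15.9% with the widest peaks (7.7% on other chromosomes), 10.1% with peaks of at least 500 bp (3.72%), 3.61% at gene ends (1.24%) and 7.67% elsewhere (2.55%). It was 6.3% with peaks trimmed to 200 bp (3.41% on other chromosomes) and 5.07% where a peak within 1 kb counted as present (1.76%). The main setting gave 1.92% on other chromosomes, so trimming raised their percentage more than that of chromosome 11. Windows below the control share made up 96.2% of 26, 97.7% of 44 at 2 Mb, 100% of 14 at 10 Mb, 100% of 25 with the widest peaks and 100% of 15 with gene-end peaks. The median log2 width ratio, -0.10, was unchanged after subtracting that of other chromosomes (-0.10). The 20 coding genes became 22 at 500 bp, 17 at 2 kb, 34 with the widest peaks and 10 with start sites of the promoter table, a choice made after seeing the data that covers 953 genes. Genes of other chromosomes were not counted under these changed settings, so the gene counts have no background. No ratio changed direction under these settings. Dropping peaks by width makes a site absent where a narrower peak was listed; the cause of the other moves was not tested. Read depth was unknown, so whether absent sites lie below the threshold of that list was not measured.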
